A study of Mus musculus with 10 samples.

Results

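In all, 10 immediate early transcription factor genes were followed across sorted mouse T cells: the orphan nuclear receptors Nr4a1, Nr4a2 and Nr4a3, the zinc finger factors Egr1 and Egr3, and the AP-1 subunits Fos, Fosb, Fosl2, Jun and Junb. Every probe set annotated to 1 of these symbols was taken, which gave 18 probe sets for the 10 genes, out of 17097 genes on the array. All 10 genes were bright enough to be tested, among 11037 tested genes. Where a gene had several probe sets, the one with the highest mean over the 10 arrays stands for it below.

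The cells were CD4+ T cells from the spleens of DBA/1 mice, an inbred strain in common use for collagen-induced arthritis. The groups were CD4+ cells of naive mice (n = 2 arrays), CD4+ cells of mice given dendritic cells (n = 2), CD49b+ cells of such mice (n = 3) and CD25+ cells of such mice (n = 3). The injected mice were given immature dendritic cells by intraperitoneal injection on 3 occasions, 7, 5 and 3 days before they were killed. CD4+ cells were enriched with beads that remove other cells, then stained and sorted by flow cytometry. The labels give neither the age of the mice nor any genotype beyond the strain. Each sort drew on a pool of several animals. Nothing in the labels says that replicates were separate pools, so p-values measure only the spread between these arrays, which may be technical. All values are the deposited log2 expression values, on which 1 unit is a 2-fold change. In sorted bulk samples, fewer cells expressing a gene and less RNA of it per cell cannot be told apart.

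Array medians were 4.79 to 4.81 in the CD4+ groups and 4.61 to 4.65 in the CD49b+ and CD25+ groups. All 7 T cell markers on the array were above the array median in every group, among them Cd3e and Cd4. Summed linear signal of 13 myeloid and dendritic cell markers was 3682 to 4266 in naive CD4+ cells, 1319 to 1651 in CD4+ cells of injected mice, 775 to 1012 in CD49b+ cells and 2003 to 3189 in CD25+ cells. Of these 13, Itgam, Cd14 and Lyz2 were too dim to be tested. The other 10 were tested, among them Itgax, Adgre1, Csf1r and Tyrobp. Of the 10, 6 were called lower after injection in the CD4+ groups, against 1.36% of all genes. Summed signal of 8 NK cell markers was 483 to 535 in naive CD4+ cells, 431 to 440 in CD4+ cells of injected mice, 776 to 1106 in CD49b+ cells and 292 to 418 in CD25+ cells. Of 7 tested NK cell markers, 4 were called higher and 2 lower in CD49b+ than in CD4+ cells of injected mice. Against CD25+ cells 4 were called higher and 0 lower. Of all genes, 29.9% and 23.5%, and 17.5% and 12.4%, were called in these comparisons. Ncr1 was among the 4 only against CD4+ cells and Klrd1 only against CD25+ cells. Gzma, a granzyme gene, was among the 4 in both, at 7.7, 8.56 and 8.38 in CD49b+ cells and 4.24 and 4.25 in CD4+ cells. Prf1 ran the other way, at 4.52, 4.74 and 4.75 in CD49b+ cells and 5.76 and 5.79 in CD4+ cells. The part of either marker list in the differences between groups was not tested. Il2ra, which encodes CD25, was 8.51 to 9.09 in CD25+ cells, 6.23 to 6.37 in CD49b+ cells and 4.15 to 4.19 in the CD4+ groups. Itga2, which encodes CD49b, was 5.59, 5.97 and 5.77 in CD49b+ cells and 5.8 and 5.85 in CD4+ cells of injected mice. Its level thus did not set CD49b+ cells apart from those CD4+ cells. In CD25+ cells it was 5.45, 5.53 and 5.43, below every CD49b+ array.

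Immediate early genes are transcribed within minutes of a stimulus without new protein synthesis, through factors such as SRF and CREB that are already in the cell. In T cells, signals from the antigen receptor induce all the families followed here, and so can handling of the cells after tissue is taken. AP-1 dimers of FOS and JUN proteins act with NFAT at cytokine genes. EGR factors and NR4A receptors induce both effector genes and genes that restrain activation, and NR4A receptors are needed for the development of regulatory T cells.

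The 3 NR4A promoters and that of Fos are shown because their deviations within the groups of injected mice ran the same way and because of a motif they hold. RefSeq promoter windows (GRCm38.p6) reach from 250 bases before to 50 after an annotated start. Of the 10 genes, 8 were matched to one, all but Egr1 and Egr3. The cyclic AMP response element is the DNA site bound by CREB, and its core, TGACG, was searched on both strands. The NR4A windows held 4 matches each, Fos 2, Fosb 1, Junb 1, Jun 0 and Fosl2 0. Of all 32851 windows, 20.8% held at least 1 match, 5.01% at least 2 and 1.03% at least 3. Capitals mark TGACG, or CGTCA where the match is on the opposite strand, in the 250 bases before the start of Nr4a1 (chr15:101266596-101266845, + strand), Nr4a2 (chr2:57124004-57124253, - strand) and Fos (chr12:85473640-85473889, + strand). The Nr4a1 window lies inside the annotated gene, whose first start is farther upstream. For Nr4a3, only 30 bases around 2 of its 4 matches are given (chr4:48045083-48045112, + strand). Another annotated start of the gene lies upstream of most of its window. These 30 bases lie downstream of that start, inside the annotated gene.
Nr4a1: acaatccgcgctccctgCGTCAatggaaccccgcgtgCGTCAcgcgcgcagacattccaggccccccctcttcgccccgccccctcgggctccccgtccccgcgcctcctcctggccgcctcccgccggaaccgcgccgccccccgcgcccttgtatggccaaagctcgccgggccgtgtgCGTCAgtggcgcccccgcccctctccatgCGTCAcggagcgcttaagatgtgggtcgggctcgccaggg
Nr4a2: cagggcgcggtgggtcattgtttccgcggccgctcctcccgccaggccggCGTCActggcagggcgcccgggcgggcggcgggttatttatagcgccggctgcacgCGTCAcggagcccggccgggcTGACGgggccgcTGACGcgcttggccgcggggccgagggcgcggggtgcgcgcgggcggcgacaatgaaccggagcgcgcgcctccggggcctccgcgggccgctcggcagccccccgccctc
Nr4a3: gtcccatgtCGTCAcatTGACGtctcgcat
Fos: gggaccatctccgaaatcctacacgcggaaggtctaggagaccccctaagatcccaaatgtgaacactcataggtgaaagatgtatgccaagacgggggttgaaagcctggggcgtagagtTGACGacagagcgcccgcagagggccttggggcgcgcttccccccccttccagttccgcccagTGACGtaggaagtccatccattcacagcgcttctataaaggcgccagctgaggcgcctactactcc

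Of the other motifs searched, only that of EGR proteins was found in these windows. The full palindrome TGACGTCA was in 0 of the 8 windows and in 1.79% of all windows. The SRF-binding CArG box was in 0 of 8 and in 1.63% of all, the AP-1 motif (TGACTCA or TGAGTCA) in 0 of 8 and 5.2%, and the NR4A motif AAAGGTCA in 0 of 8 and 1.51%. The EGR motif (GCGTGGGCG or GCGGGGGCG) occurred once each in Nr4a1, Fosb and Fosl2, 3 of the 8 windows, and in 3.47% of all windows. All motifs were searched on both strands. A TGACG inside TGACGTCA would count for both. These are exact matches of letters only. Sites outside the windows, sites with other letters and the promoters of Egr1 and Egr3 were not covered.

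Levels differed from array to array more than from group to group for most of the 10 genes. Nr4a1, encoding the receptor Nur77, was 9.98 and 9.36 in naive CD4+ cells, 9.89 and 10.75 in CD4+ cells of injected mice, 9.64, 10.06 and 8.49 in CD49b+ cells, and 10.07, 10.67 and 9.27 in CD25+ cells (replicates in order of number, here and below). All 4 groups overlapped, and replicate 3 was lowest in both sorted subsets. Nr4a2, encoding Nurr1, was 5.69 and 5.07 in naive cells, 5.18 and 7.53 in CD4+ cells of injected mice, 7.37, 8.24 and 5.35 in CD49b+ cells, and 8.47, 9.08 and 6.59 in CD25+ cells. It spanned 16.1-fold over the 10 arrays, the widest range of the 10 genes, and 7.45-fold within the CD49b+ group alone.

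Nr4a3, encoding Nor1, separated CD25+ cells from every other group. It was 5.93 and 5.90 in naive cells, 6.17 and 6.41 in CD4+ cells of injected mice, 5.78, 6.06 and 5.33 in CD49b+ cells, and 7.43, 7.90 and 6.89 in CD25+ cells. The lowest CD25+ array lay above the highest array of the other 3 groups.

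Egr1, a zinc finger activator, was 10.49 and 10.36 in naive cells, 10.60 and 11.07 in CD4+ cells of injected mice, 10.54, 11.15 and 9.28 in CD49b+ cells, and 10.83, 11.26 and 9.81 in CD25+ cells. The naive arrays lay inside the range of both sorted subsets. Egr3, which restrains T cell activation together with Egr2, was 6.04 and 5.95 in naive cells, 5.99 and 6.11 in CD4+ cells of injected mice, 5.76, 5.82 and 5.84 in CD49b+ cells, and 5.72, 5.97 and 5.92 in CD25+ cells. It spanned 1.31-fold in all, the narrowest range of the 10.

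Among the AP-1 genes, Fos was 12.45 and 12.36 in naive cells, 12.08 and 12.90 in CD4+ cells of injected mice, 12.98, 13.07 and 12.41 in CD49b+ cells, and 12.89, 13.01 and 12.33 in CD25+ cells. The highest value of any probe set was 13.42 to 13.48 per array, so the Fos probe set lay near the top of the scale with a range of 1.99-fold over the arrays. Fosb, a second partner of JUN proteins, was 8.63 and 8.15 in naive cells, 7.36 and 10.37 in CD4+ cells of injected mice, 9.5, 10.34 and 8.33 in CD49b+ cells, and 9.92, 10.92 and 8.69 in CD25+ cells. The 2 CD4+ arrays of injected mice, at 7.36 and 10.37, bracketed all naive and all CD49b+ arrays.

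Fosl2, encoding Fra-2, was 5.80 and 5.76 in naive cells, 5.87 and 5.87 in CD4+ cells of injected mice, 5.1, 5.2 and 5.2 in CD49b+ cells, and 5.04, 5.24 and 5.10 in CD25+ cells. Every array of both sorted subsets lay below every CD4+ array. Jun was 11.61 and 11.38 in naive cells, 12.06 and 12.20 in CD4+ cells of injected mice, 11.45, 11.98 and 10.56 in CD49b+ cells, and 12.24, 12.61 and 11.58 in CD25+ cells. All CD49b+ arrays were below both CD4+ arrays of injected mice. Junb, which encodes a JUN protein that pairs with BATF in T cells, was 9.58 and 8.85 in naive cells, 9.11 and 10.10 in CD4+ cells of injected mice, 9.13, 9.60 and 8.09 in CD49b+ cells, and 9.61, 10.13 and 8.73 in CD25+ cells. Its groups all overlapped.

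**Figure D1:**
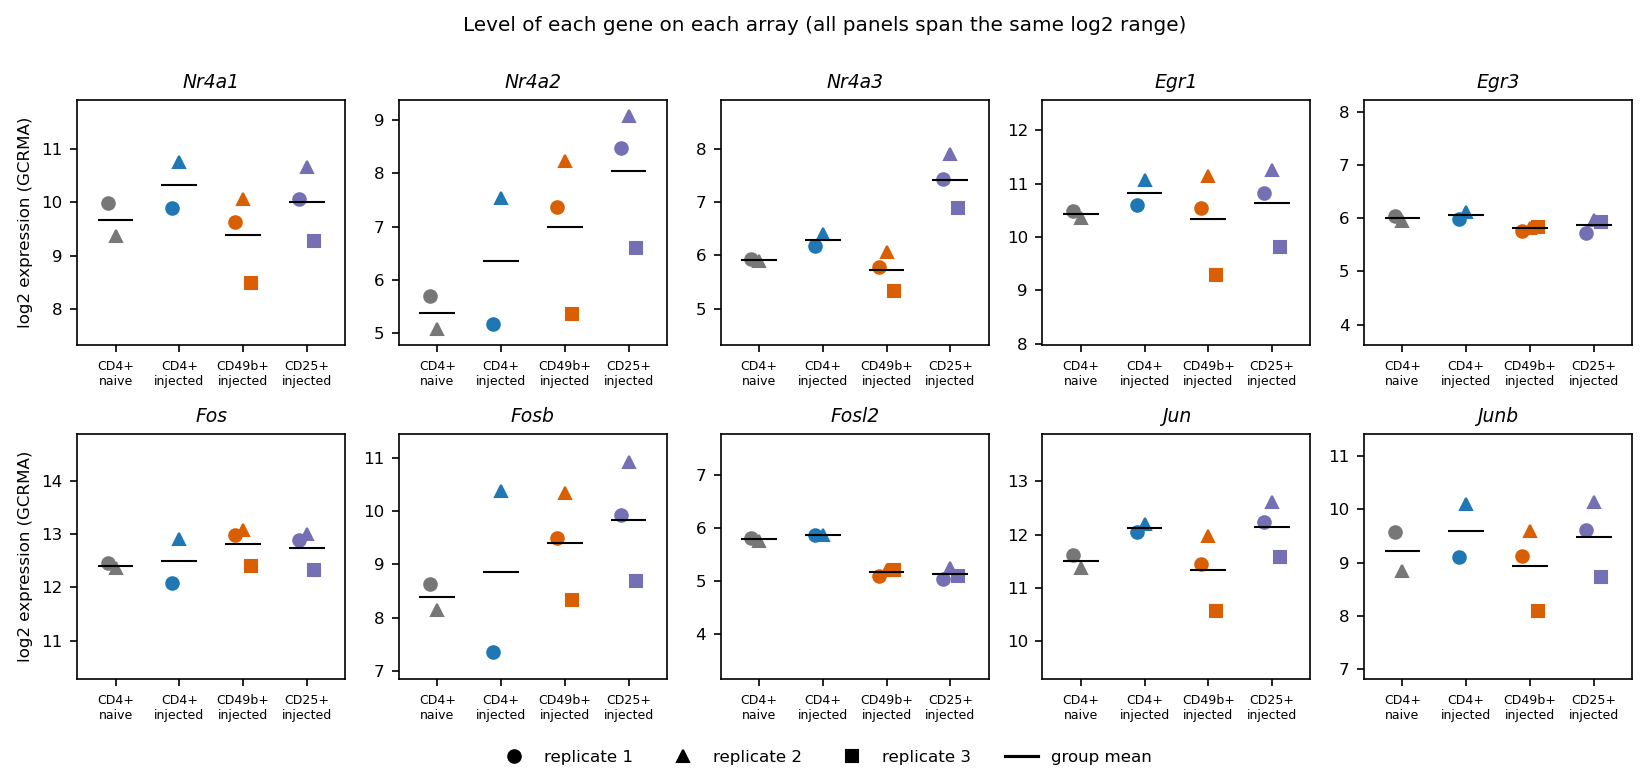
Each panel plots the log2 expression of 1 gene on the 10 arrays by group, with a marker for each replicate number and a bar for the group mean. Nr4a3 stands apart in CD25+ cells and Fosl2 is lower in both sorted subsets, and Egr3 hardly varies. For 8 of the 10, all but Egr3 and Fosl2, replicate 3 is lowest in both CD49b+ and CD25+ cells.

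The order of the group means differed between genes. The mean of Nr4a3 was 7.41 ± 0.51 (SD, n = 3) in CD25+ cells, 6.29 ± 0.17 (SD, n = 2) in CD4+ cells of injected mice, 5.91 ± 0.02 (SD, n = 2) in naive cells and 5.72 ± 0.37 (SD, n = 3) in CD49b+ cells. Among the neighbours in that order, CD25+ and CD4+ cells of injected mice differed beyond the test's threshold, CD4+ cells of injected and naive mice did not, and naive and CD49b+ cells, which overlapped, were not tested. For Nr4a2 the order was CD25+ at 8.05 ± 1.3 (SD, n = 3), CD49b+ at 6.99 ± 1.49 (SD, n = 3), CD4+ of injected mice at 6.35 ± 1.66 (SD, n = 2) and naive at 5.38 ± 0.44 (SD, n = 2), and no neighbours passed the test.

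Replicates of a group differed far more for these genes than for a usual gene. The within-group SD was 1.34 for Nr4a2 and 1.24 for Fosb, ranks 5 and 6 from the widest among 11037 genes. It was 0.71 for Egr1, 0.70 for Junb, 0.69 for Nr4a1, 0.52 for Jun, 0.38 for Fos and 0.37 for Nr4a3. The median gene had 0.12, and the 95th percentile of all genes was 0.31, so 8 of the 10 lay above that percentile. Egr3 at 0.09 and Fosl2 at 0.07 were below the median gene.

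**Figure D2:**
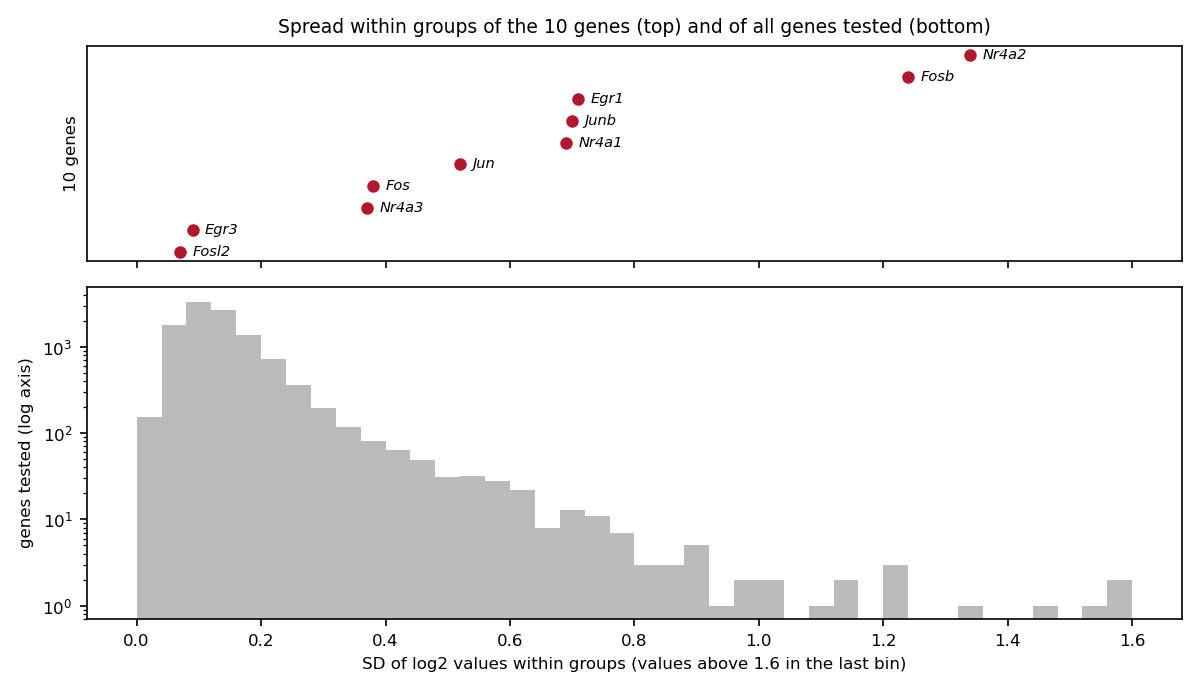
The upper strip marks the SD of log2 values within groups for each of the 10 genes, and the lower panel shows the number of genes tested in each bin of SD on a log axis. Nr4a2 at 1.34 and Fosb at 1.24 sit in the far tail, and Egr3 and the main probe set of Fosl2 lie below the median of 0.12.

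The deviations ran the same way in the 2 sorted subsets. For 8 genes, all but Egr3 and Fosl2, replicate 3 was lowest, replicate 1 in the middle and replicate 2 highest among both the CD49b+ and the CD25+ arrays. Of all genes tested, 7.13% showed that order in both subsets. Averaged over the 10 genes, the deviation from the group mean was 0.14, 0.56 and -0.70 for CD49b+ replicates 1, 2 and 3, and 0.09, 0.55 and -0.64 for CD25+ replicates 1, 2 and 3. Replicate 2 also exceeded replicate 1 in CD4+ cells of injected mice for 9 of the 10, with mean deviations of 0.45 and -0.45, as it did for 6507 of all 11037 genes. In naive cells the order was the other way, with replicate 1 above replicate 2 for 10 of the 10 and mean deviations of 0.15 and -0.15. Of all 11037 genes, 4697 had replicate 1 above replicate 2 there.

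The list of other immediate early genes was read for the same array order. Of 26 tested genes, 19, such as Ier2, Dusp1 and Klf6, showed it in both subsets and 22 had a within-group SD above the 95th percentile. Of 7 heat shock genes, 0 showed it. Their mean deviations were 0.38 and -0.38 in CD4+ cells of injected mice, 0.10, -0.41 and 0.31 in CD49b+ cells and 0.02, -0.32 and 0.30 in CD25+ cells. The chaperone gene Hspa1b was 10.45 and 7.62 in CD4+ cells of injected mice, 9.87, 6.85 and 10.19 in CD49b+ cells, and 9.18, 7.10 and 9.81 in CD25+ cells, so that in these 3 groups it was lowest on the replicate 2 arrays, where 9 or 10 of the 10 genes were highest. In naive cells it was 7.62 and 7.45, lower on replicate 2, where all 10 genes were lower as well. Hspa1b carried much of the heat shock means, with a within-group SD of 1.57 against at most 0.32 for the other heat shock genes. Hsph1, Dnajb1 and Dnaja1 were also lowest on replicate 2 in both sorted subsets, Hspa8 only in CD49b+ cells, and Hsp90aa1 and Hspe1 in neither.

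Measures of RNA and labelling varied over the same arrays. The 24 probe sets for poly-A control RNA averaged 8.41 and 8.23 on replicate 3 of the CD49b+ and CD25+ groups, and 5.32 to 6.72 on the other 8 arrays. The Gapdh 3′ minus 5′ probe difference was 0.69, 0.23 and 0.46 in CD49b+ cells and 0.58, 0.37 and 0.60 in CD25+ cells, lowest on replicate 2. The same difference for Actb was 0.55, 0.44 and 0.5 in CD49b+ cells, and 0.63, 0.67 and 0.63 in CD25+ cells, where it was highest on replicate 2. The part of these measures in the array order of the 10 genes was not tested.

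**Figure D3:**
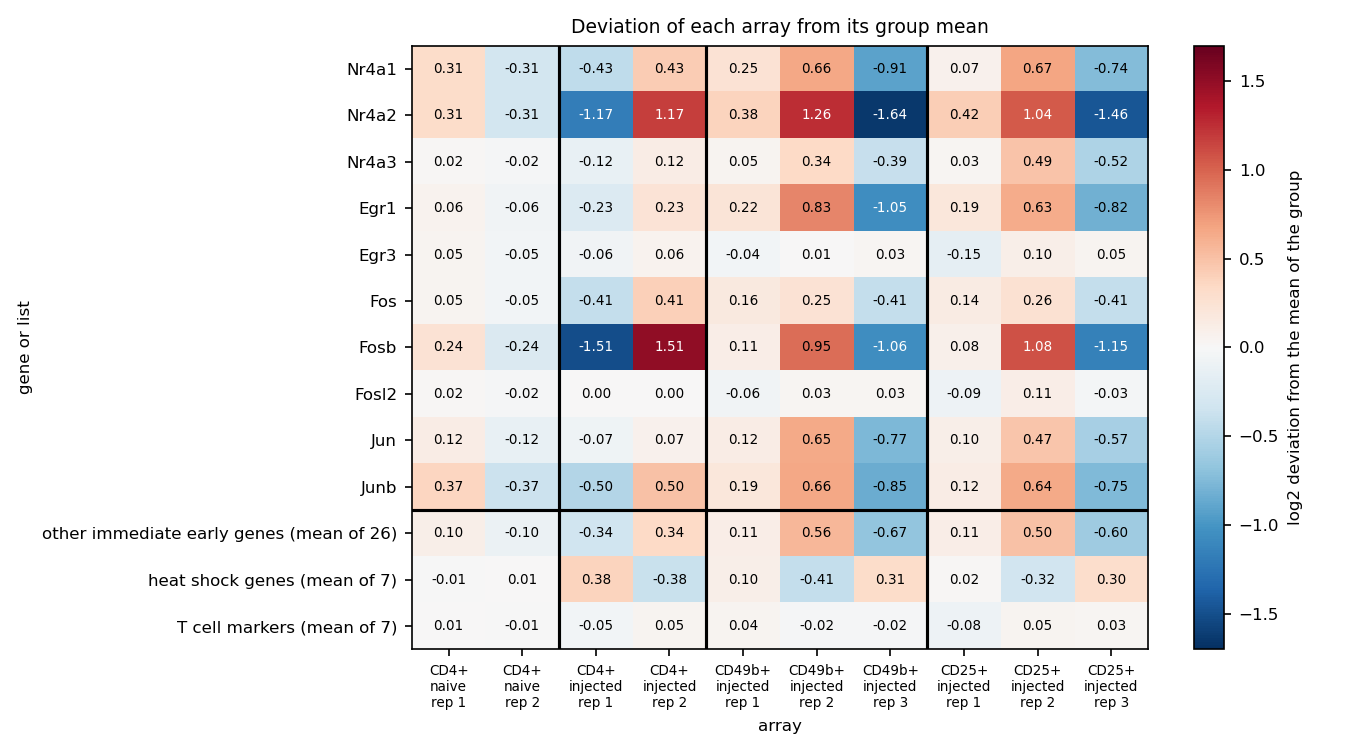
Colours and numbers give the log2 deviation of each array from the mean of its group for the 10 genes, and the mean deviation of 3 gene lists below the line. Replicate 3 is low for 8 genes in both sorted subsets, down to -1.64 for Nr4a2. The mean of the heat shock genes, carried largely by Hspa1b, deviates the other way there. The mean deviation of the T cell markers stays within 0.08 of the group means, though single markers deviate more.

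Dendritic cell injection was examined in CD4+ cells of injected against naive mice, the comparison the labels name for the vaccination. None of the 10 genes passed limma's test at an adjusted p under 0.05, and 0 had an unadjusted p under 0.05. All genes gave few calls here, 0.0272% higher and 1.36% lower in injected mice. The difference was positive for 10 of the 10 genes and for 42.1% of all genes, with a median log2 difference of 0.40 for the 10 and -0.03 for all. That count rests on 1 array: without replicate 2 of the CD4+ cells of injected mice, 5 of the 10 were negative, Nr4a2 at -0.20, Egr3 at -0.01, Fos at -0.32, Fosb at -1.03 and Junb at -0.11. Nr4a2 had the largest difference, 0.97 ± 1.06 (SE; limma adjusted p = 0.809, 95% interval -1.39 to 3.33). Jun had 0.63 ± 0.42 (limma adjusted p = 0.632), with both injected arrays above both naive arrays. Arrays of the groups did not overlap for 4 of the 10 genes (Nr4a3, Egr1, Fosl2 and Jun), against 48.5% of all genes. The median SE of the 10 was 0.48, against 0.12 for all genes, so differences of the size seen were not detectable with 2 arrays a group.

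CD49b+ cells were compared with CD4+ cells of injected mice. Fosl2 was lower by limma's test, with a log2 difference of -0.71 ± 0.08 (SE; adjusted p = 9.78e-05), 1.63-fold higher in CD4+ cells. Egr3 was lower by a small margin, -0.24 ± 0.09 (limma adjusted p = 0.0498). None of the 10 was called higher by limma, nor had any other gene of the 10 an unadjusted p under 0.05. Over all genes, 29.9% were called higher and 23.5% lower, so 2 of 10 lower is near the background. The Egr3 call was lost without any 1 of the 5 arrays compared (limma adjusted p 0.0752 to 0.251). With arrays centred on their medians the difference was -0.05, and over all alternatives the adjusted p ran from 0.0364 to 0.643.

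The other 8 genes did not pass in that comparison in the fit without a replicate block. Nr4a1 had a log2 difference of -0.93 ± 0.50 (limma adjusted p = 0.145) and Jun -0.80 ± 0.38 (limma adjusted p = 0.102). Nr4a2 had 0.63 ± 0.96 and Fosb 0.52 ± 0.89, each with a 95% interval that spans more than 2-fold in both directions. Arrays did not overlap for 4 of the 10 (Nr4a3, Egr3, Fosl2 and Jun, all lower in CD49b+ cells), against 70.3% of all genes. The median difference was -0.54 for the 10 and 0.03 for all genes. CD4+ cells of injected mice have no replicate 3, the lowest array for 8 of the 10 in both sorted subsets. With the replicate number as a block over all 10 arrays, Nr4a1 had -0.52, Egr1 -0.04, Junb -0.26 and Fosb 1.08. That limma fit called Nr4a2 (1.41) and Fos (0.54) higher, and Nr4a3 (-0.34) and Jun (-0.46) lower, at adjusted p 0.0291 to 0.0382. Egr3 and Fosl2 stayed lower. The fit called 3528 of all 11037 genes higher and 2664 lower.

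CD25+ cells were compared with the same CD4+ arrays of injected mice, which both subset comparisons therefore share. Nr4a3 rose by 1.12 ± 0.27 on the log2 scale (SE; limma adjusted p = 0.0098), a 2.17-fold higher level in CD25+ cells. Fosl2 fell by 0.75 ± 0.08 (limma adjusted p = 0.000115). These made 1 of 10 called higher and 1 of 10 lower, where 20.8% of all genes were called higher and 17.8% lower. The Nr4a3 difference was 1.00 without replicate 1 of the CD4+ cells of injected mice, with a limma adjusted p of 0.0714. Over all alternatives its adjusted p ran from 4.4e-05 to 0.215.

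Nr4a2 had the largest difference between CD25+ and CD4+ cells, 1.69 ± 0.96, but its SE was large (limma adjusted p = 0.192). Without the replicate 3 arrays of both subsets it was 2.42 (limma adjusted p = 0.0277, an alternative chosen after seeing the data), and over all alternatives its adjusted p ran from 0.00426 to 0.764. Fosb had 0.98 ± 0.89 (limma adjusted p = 0.416). Jun, Junb and Fos had differences of 0.01 ± 0.38, -0.12 ± 0.51 and 0.25 ± 0.28. The median difference was -0.05 for the 10 and 0.02 for all genes, and arrays did not overlap for 3 of the 10 against 58.9% of all genes. With the replicate number as a block over all 10 arrays, Nr4a1, Egr1 and Junb changed sign, to 0.09, 0.27 and 0.28, uncalled. That limma fit called Nr4a2 (2.47, adjusted p = 0.00426) and Nr4a3 (1.35, adjusted p = 4.4e-05) higher and Fosl2 lower. The fit called 2651 of all 11037 genes higher and 2072 lower.

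**Figure D4:**
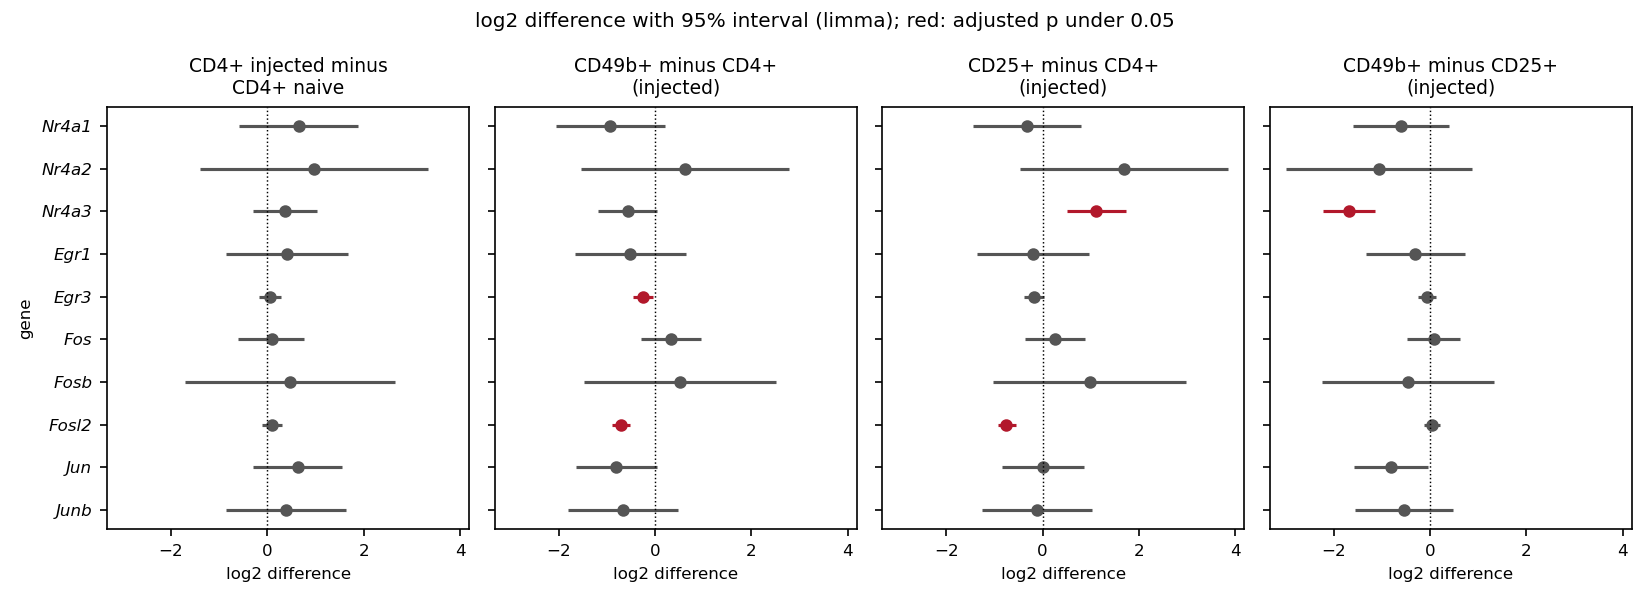
Points give the limma log2 difference of each gene in the 4 comparisons and lines its 95% interval, in red where the adjusted p was under 0.05. Fosl2 is red in both comparisons with CD4+ cells, Nr4a3 in both that involve CD25+ cells and Egr3 in 1, and the intervals of Nr4a2 and Fosb are the widest.

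The 2 sorted subsets were then set against each other, with the same CD25+ arrays as in the comparison above. Nr4a3 was 3.21-fold higher in CD25+ than in CD49b+ cells, a log2 difference of -1.68 ± 0.24 for CD49b+ minus CD25+ (SE; limma adjusted p = 0.000685). No other gene of the 10 passed, which made 1 of 10 lower and 0 higher in CD49b+ cells (limma), against 12.4% lower and 17.5% higher of all genes. Jun came nearest, at -0.81 ± 0.34 (limma adjusted p = 0.102), and over all alternatives its adjusted p ran from 0.000693 to 0.305. The median was -0.50 for the 10 and 0.03 for all genes. Arrays did not overlap for 1 of the 10, Nr4a3, against 41.6% of all genes. Summed myeloid and dendritic cell marker signal was also higher in CD25+ cells (2003 to 3189) than in CD49b+ cells (775 to 1012), with CD4+ cells of injected mice between them (1319 to 1651), and its part in the Nr4a3 difference was not tested. The sum was carried largely by the class II gene H2-Aa, at 10.93, 11.02 and 10.25 in CD25+ cells and 6.86, 7.66 and 6.79 in CD49b+ cells. Other markers of the list ran the opposite way, such as Ifi30 at 6.83, 7.53 and 7.41 in CD25+ and 8.35, 8.7 and 8.52 in CD49b+ cells. CD49b+ cells had 2 markers called higher and 4 lower of the 10.

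CD49b+ and CD25+ arrays of the same replicate number were taken as pairs, a choice made from these data. The labels do not say whether a number marks a shared sort or day. Over all genes tested, deviations from the group means correlated at 0.16, 0.37 and 0.64 for numbers 1, 2 and 3. Without the genes followed here and the gene lists, the correlations were 0.15, 0.31 and 0.61. The pair counts and the fits with a replicate block rest on that choice. Within numbers, 7 genes were lower in CD49b+ than in CD25+ cells in 3 of 3 pairs, against 27.5% of all genes. Nr4a3 differed by -1.66, -1.84 and -1.55 for numbers 1, 2 and 3, and Nr4a2 by -1.10, -0.84 and -1.25. Jun differed by -0.79, -0.64 and -1.02, Nr4a1 by -0.43, -0.61 and -0.78, and Junb by -0.48, -0.53 and -0.64. Fosb differed by -0.42, -0.58 and -0.36 and Egr1 by -0.29, -0.11 and -0.53. The SD of the Nr4a2 difference over the 3 pairs was 0.21, while the SD of its level was 1.49 in CD49b+ and 1.3 in CD25+ cells. Fos was higher by 0.09, 0.06 and 0.08, and Egr3 and Fosl2 had mixed signs.

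The calls depend on the fit with the replicate block. With the number as a block over all 10 arrays (4 residual degrees of freedom), limma called 2 of the 10 lower in CD49b+ cells, Nr4a3 (adjusted p = 5.28e-06) and Jun (adjusted p = 0.00191), and 0 higher. That fit called 15.2% of all genes lower and 21.3% higher. With only the 6 arrays of these groups (2 residual degrees of freedom, a fit added after seeing the data), it called 7 of the 10 lower and 0 higher, against 15.5% lower and 21.4% higher of all genes. There Nr4a2 had -1.06 ± 0.10 (limma adjusted p = 0.000233), Nr4a1 -0.61 ± 0.09 (limma adjusted p = 0.00212), and Egr1 -0.31 ± 0.10 (limma adjusted p = 0.0449). Over all alternatives the adjusted p ran from 0.000233 to 0.866 for Nr4a2, from 0.00212 to 0.828 for Nr4a1 and from 0.0449 to 0.996 for Egr1. Of 26 other immediate early genes tested, 16 were lower in CD49b+ cells in 3 of 3 pairs, and the 6-array fit called 14 lower and 4 higher.

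**Figure D5:**
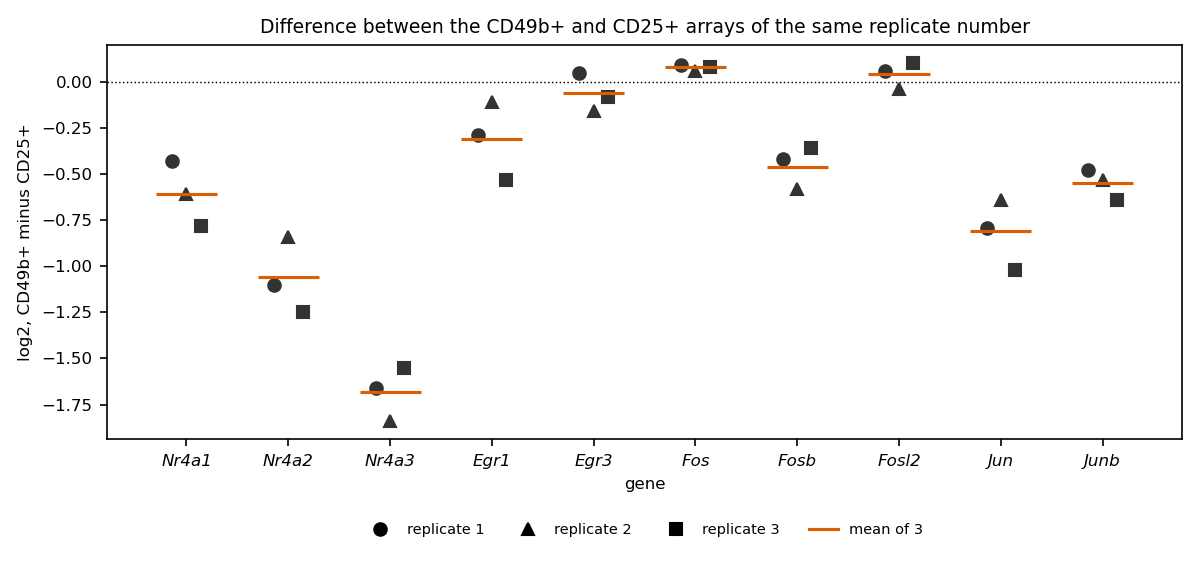
Each marker is the log2 difference between the CD49b+ and the CD25+ array of 1 replicate number, and the bar is the mean of 3. Nr4a3 lies lowest, between -1.84 and -1.55, 6 more genes lie below 0 in every pair, and Fos lies between 0.06 and 0.09.

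Probe sets of a gene did not always move together. For Nr4a3 the second probe set was 5.72 to 6.09 on all 10 arrays and differed by -0.06 between CD49b+ and CD25+ cells (limma adjusted p = 0.739) and by 0.20 between CD25+ and CD4+ cells (limma adjusted p = 0.215), so the Nr4a3 differences rest on 1 probe set. The remaining Nr4a3 probe set was too dim to be tested. For Fosl2 the second probe set was nearly as bright (mean 5.40 against 5.42). It was 5.01 and 5.79 in CD4+ cells of injected mice, 6.15, 5.75 and 5.95 in CD49b+ cells and 5.33, 5.76 and 4.70 in CD25+ cells. Unlike the main probe set, it was thus lowest on replicate 3 and highest on replicate 2 in CD25+ cells, though not in CD49b+ cells. Its difference was 0.55 for CD49b+ minus CD4+ cells (limma adjusted p = 0.166), the opposite sign to the main probe set, and -0.14 for CD25+ minus CD4+ cells (limma adjusted p = 0.763). Over all alternatives the adjusted p of Fosl2 in CD49b+ against CD4+ cells ran from 3.52e-05 to 0.706.

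The second probe set of Jun and the next 2 of Nr4a2 gave differences of the same sign as the main ones in all 4 comparisons. For Jun, CD49b+ minus CD25+ was -0.98 (limma adjusted p = 0.132). For Nr4a2 the same difference was -0.35 and -0.91 on the next 2 probe sets, against -1.06, and its last 2 probe sets were too dim to be tested.

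Partners and regulators of these factors were read from lists of pathway genes, whose counts stand against the shares of all genes called: 29.9% higher and 23.5% lower in CD49b+ against CD4+ cells of injected mice, 20.8% and 17.8% for CD25+ over CD4+, and 17.5% and 12.4% for CD49b+ over CD25+. Of 10 tested AP-1 family and partner genes, CD25+ cells had 2 higher and 1 lower than the CD4+ arrays of injected mice. Batf3, a BATF-family partner of JUN proteins, rose by 2.01 ± 0.20 on the log2 scale (limma adjusted p = 6.31e-05). Its levels were 7.72, 7.86 and 7.03 in CD25+ cells and 5.49 to 6.04 on the 7 other arrays, so CD25+ cells stood apart for Batf3 as they did for Nr4a3. Batf rose by 0.83 ± 0.10 in CD25+ cells and by 0.73 ± 0.10 in CD49b+ cells (limma adjusted p = 0.000229 and 0.000303). In CD49b+ against CD4+ cells 2 were higher and 1 lower, and in CD49b+ against CD25+ cells 0 were higher and 1, Batf3, was lower. Atf3 and Maff had the array order of the 10 genes, with Atf3 at 8.65, 10.08 and 6 in CD49b+ cells and 8.47, 9.73 and 6.11 in CD25+ cells.

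Of 3 tested EGR relatives and corepressors, 1 was higher and 2 lower in CD49b+ than in CD25+ cells. Egr2, the close relative of Egr3, was lower by -1.25 ± 0.33 (limma adjusted p = 0.0164). Nab2, a corepressor of EGR proteins, was lower by -0.48 ± 0.07 (limma adjusted p = 0.000899), and its relative Nab1 was higher by 0.41 ± 0.10 (limma adjusted p = 0.0115). In CD25+ against CD4+ cells 1 was higher (Nab2) and 1 lower (Nab1), and in CD49b+ against CD4+ cells 0 changed.

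Of 7 tested NR4A partners and repressors, 1 was higher and 3 lower in CD49b+ than in CD4+ cells of injected mice. The counts were 1 and 1 for CD25+ over CD4+ cells, and 0 and 2 for CD49b+ over CD25+ cells. Mef2d, which binds the Nr4a1 promoter, was lower in CD49b+ cells, by -0.95 ± 0.20 against CD4+ cells and -0.86 ± 0.18 against CD25+ cells (limma adjusted p = 0.00356 and 0.00587). Hdac7, a repressor of Nr4a1, differed by -0.55 ± 0.12 for CD49b+ minus CD25+ cells (limma adjusted p = 0.00627). Of 8 SRF, ternary complex and CREB factors, 2 were higher and 0 lower in CD49b+ against CD4+ cells. CD25+ cells had 1 higher and 1 lower than CD4+ cells, and CD49b+ cells 0 higher and 1 lower than CD25+ cells. Elk3, a ternary complex factor, rose by 0.72 ± 0.13 in CD49b+ and 0.80 ± 0.13 in CD25+ cells against CD4+ cells (limma adjusted p = 0.00141 and 0.00113).

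Of 15 genes of the MAP kinase and calcineurin route, which carries antigen receptor signals to these promoters, 7 were higher and 4 lower in CD49b+ against CD4+ cells, 3 and 4 for CD25+ over CD4+, and 6 and 3 for CD49b+ over CD25+. The shares of all genes in these comparisons were 29.9% and 23.5%, 20.8% and 17.8%, and 17.5% and 12.4%. Ppp3ca, a catalytic subunit of calcineurin, rose by 1.29 ± 0.10 in CD49b+ and by 0.50 ± 0.10 in CD25+ cells against CD4+ cells (limma adjusted p = 9.99e-06 and 0.00448). Nfatc2 was lower in both, by -0.61 ± 0.09 and -0.47 ± 0.09 (limma adjusted p = 0.000488 and 0.00344).

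Of 26 other immediate early genes tested, 3 were higher and 4 lower in CD49b+ against CD4+ cells, 1 and 0 for CD25+ over CD4+, and 2 and 6 for CD49b+ over CD25+. Of all genes, 29.9% and 20.8% were called higher in the comparisons with CD4+ cells, a larger share than in the list. The median within-group SD of the 26 was 0.55, against 0.12 for all genes, which limits what the test could call. Of all genes, 12.4% were lower in CD49b+ than in CD25+ cells. Ier3, a regulator of cell survival, was 7.25, 7.69 and 6.79 in CD49b+ cells and 4.28 to 5.18 on the 7 other arrays, a rise of 2.58 ± 0.30 over CD4+ cells (limma adjusted p = 8.97e-05). Irf4, which acts with BATF and JUN proteins, rose by 1.55 ± 0.24 in CD49b+ and 1.57 ± 0.24 in CD25+ cells (limma adjusted p = 0.000553 and 0.000812). Sik1, a kinase that restrains CREB coactivators, was lower in CD49b+ than CD25+ cells by -1.49 ± 0.50 (limma adjusted p = 0.0487).

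Of 16 T cell genes known as targets of these factors, 9 were higher and 3 lower in CD49b+ against CD4+ cells, 7 and 1 for CD25+ over CD4+, and 4 and 8 for CD49b+ over CD25+. Of all genes, 29.9% and 23.5%, 20.8% and 17.8%, and 17.5% and 12.4% were called. The list includes Il2ra, on which CD25+ cells were sorted. Foxp3, the defining factor of regulatory T cells, rose by 3.61 ± 0.12 in CD25+ and 1.81 ± 0.12 in CD49b+ cells over CD4+ cells (limma adjusted p = 1.97e-07 and 3.18e-06). In CD4+ cells of injected against naive mice, Pdcd1 and Ikzf2 were the 2 of the 16 that fell, by 1.77 ± 0.16 and 1.22 ± 0.17 (limma adjusted p = 0.00228 and 0.00999), and 0 rose. Of all genes, 1.36% were lower and 0.0272% higher there. None of the other pathway lists had a called gene between injected and naive CD4+ cells. Of 7 heat shock genes 1 was called lower in CD49b+ against CD4+ cells and 1, the same gene Hspe1, against CD25+ cells.

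The genes most like Nr4a1 over the 10 arrays were found by the mean absolute difference of log2 values, each gene centred on its own mean. Junb was nearest at 0.08, then Tgif2 at 0.18 and Tagap at 0.19, where the median over all genes tested was 0.54. For Egr1 the nearest were Rgs2 at 0.16, Tagap at 0.18 and Nr4a1 at 0.19, with a median of 0.50. Tagap, a GTPase-activating protein gene of activated T cells, was 10.41, 10.66 and 9.45 in CD49b+ cells and 11.02, 11.20 and 9.98 in CD25+ cells. Since it was chosen for this likeness, its order of arrays is a description. Rgs2, a regulator of G protein signalling, was 10.25, 11.12 and 9.24 in CD49b+ cells and 11.20, 11.39 and 9.82 in CD25+ cells. The range of Fos, 0.99, was under the 1 log2 unit set for this search.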

How the data were processed

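Total RNA, 100 ng per sample, was labelled and hybridised to 10 Affymetrix arrays, per the labels' protocols. The authors deposited log2 expression values; GCRMA and Affymetrix Expression Console 1.2.1 are named in the submitters' processing notes, and nothing used here says whether all arrays were normalised together. Gene symbols came from the platform annotation: of 45141 probe sets, 104 were controls, 28898 had 1 symbol and 551 several, and the rest none. One probe set per gene was kept, the brightest, and genes above the 50th percentile on at least 2 arrays were tested with limma 3.58.1 in R 4.3.3 (lmFit and eBayes, 4 group means, 10 arrays, 6 residual degrees of freedom, Benjamini-Hochberg over 11037 genes, called at adjusted p under 0.05). The script was tested on simulated data. The number of arrays limits the precision.

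All 10 genes are named, with up to 4 called genes of each pathway list per comparison by size, from which examples are given, and the 3 genes most like Nr4a1 and Egr1 (the range of Fos was too small for that search). Atf3, Maff, Hspa1b, Hspa8, Hsp90aa1, Hsph1, Dnajb1, Dnaja1, Gzma, Prf1, Ncr1, Klrd1, H2-Aa and Ifi30 were named after their values were seen. The members and lists were chosen with earlier results of these data known. Replicate numbers come from the sample titles. Deviations of CD49b+ and CD25+ arrays of the same number correlated at 0.16, 0.37 and 0.64 over 11037 genes, each above 0.1, so these numbers were taken as pairs. With CD4+ cells of injected mice, 2 pairs were too few for that decision. Alternatives varied the filter, normalisation, probe set choice, fit, replicate block, fold and arrays. Promoters came from RefSeq (GRCm38.p6).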

Additional observations from a re-analysis of the deposited data

How the results depend on the processing

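Of 748 values of single genes under alternatives, 702 kept direction and side of the threshold, 24 passed it newly, 21 no longer passed and 1 reversed; 47 of the 702 changed sign but passed in neither. The reversal was Fosl2 in CD49b+ against CD4+ cells, 0.55 on its second probe set. Lower calls in CD49b+ against CD4+ cells (2) became 1 with quantile normalisation, median-centred arrays, the mean over probe sets, every probe set tested, a trended robust fit, only the 2 groups, or both number 3 arrays left out, and 0 with a 70th percentile filter, which removes genes, or a 2-fold minimum. In CD25+ against CD4+ cells the 1 lower call became 0 with the 70th percentile filter, the mean over probe sets or the 2-fold minimum, and the 1 higher became 2 without both number 3 arrays. In CD49b+ against CD25+ cells the 1 lower became 2 without them. Leaving out 1 array gave 1 to 2 lower calls in CD49b+ against CD4+ cells, 0 to 1 higher in CD25+ against CD4+ cells, and 1 to 2 lower in CD49b+ against CD25+ cells. The cause was not tested.

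The replicate block over 10 arrays gave 2 higher and 4 lower calls in CD49b+ against CD4+ cells, where 3528 and 2664 of all 11037 genes were called. It gave 2 higher in CD25+ against CD4+ cells, against 2651 of all genes. In CD49b+ against CD25+ cells it gave 2 lower, against 15.2% of all genes. With only the arrays compared it gave 2 and 4, 3 higher, and 7 lower. The share of all genes was 15.5% for the last, and no share is given here for the others. With CD4+ cells of injected mice the arrays share only a number: deviations correlated at 0.09 and 0.52 with CD49b+ and 0.24 and 0.53 with CD25+ arrays. Naive and injected CD4+ arrays of the same number correlated at -0.21, and a crossed pairing, chosen after seeing the data, called 0 genes of all higher and 0 lower. Centring arrays on their medians shifted the median of all genes by 0.19 and 0.16 in the comparisons with CD4+ cells and raised the share of calls that were higher from 56 to 78.3% (CD49b+) and from 53.9 to 78.6% (CD25+). With 2 or 3 arrays a group, the spread of these genes limits what could be detected.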
